A study of Mus musculus with 9 samples.

Results

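The transcripts described here were those of 10 mouse antiviral effector genes that interferons induce: Ifit1, Ifit2, Ifit3, Ifit3b, Isg15, Usp18, Rsad2, Cmpk2, Mx1 and Mx2. The members were chosen by symbol, with earlier results of these data known, and all 10 were found among the 56719 genes counted. The samples were livers of C57BL/6J mice, with 3 poly(A) RNA sequencing libraries in each of 3 groups. FMT-Con A mice were gavaged for 4 weeks with faeces of mice that had the concanavalin A model of autoimmune hepatitis, and then received concanavalin A at 10 mg/kg in the tail vein on the day of collection. Con A mice were gavaged with PBS for 4 weeks and received the same injection of 10 mg/kg. WT mice received PBS throughout. Concanavalin A, a lectin from jack beans, stimulates T cells, and hepatitis follows within hours. The interval between injection and collection is not stated, and no group given faeces without concanavalin A was analysed here, so that the effect of the faeces alone cannot be told apart from its effect on the response to the lectin.

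Type I interferons bind a receptor whose kinases Jak1 and Tyk2 activate a transcription factor complex that includes Irf9 and binds interferon-stimulated response elements upstream of the effector genes. Interferon-gamma, which T cells and NK cells secrete, acts mainly through gamma-activated sites, and also raises some of the same genes. The IFIT proteins bind viral RNA, Isg15 is a ubiquitin-like protein joined to other proteins, Rsad2 and Cmpk2 act on nucleotides, and the Mx proteins are dynamin-like GTPases that trap viral components.

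The response element is the letter pattern that type I interferon targets are known to share, and promoter windows are shown for the 5 members in which its core was found. The core was searched as GAAANNGAA on both strands of the 250 bases before the gene start, with overlapping matches counted, in RefSeq sequence of build GRCm38.p6. Windows were present for 7 of the 10 members, and not for Usp18, Mx1 and Mx2. Capitals mark the core matches, all windows are written 5′ to 3′ on the gene's strand, and they lie at chr19:34640639-34640888 (+) for Ifit1, chr19:34583279-34583528 (+) for Ifit3, chr19:34607707-34607956 (+) for Ifit3b, chr4:156200819-156201068 (-) for Isg15 and chr12:26456453-26456702 (-) for Rsad2.
Ifit1: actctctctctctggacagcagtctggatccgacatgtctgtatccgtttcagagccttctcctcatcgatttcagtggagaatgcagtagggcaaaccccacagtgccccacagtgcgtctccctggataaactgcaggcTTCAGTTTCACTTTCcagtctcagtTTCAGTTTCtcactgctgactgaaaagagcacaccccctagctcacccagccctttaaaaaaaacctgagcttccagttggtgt
Ifit3: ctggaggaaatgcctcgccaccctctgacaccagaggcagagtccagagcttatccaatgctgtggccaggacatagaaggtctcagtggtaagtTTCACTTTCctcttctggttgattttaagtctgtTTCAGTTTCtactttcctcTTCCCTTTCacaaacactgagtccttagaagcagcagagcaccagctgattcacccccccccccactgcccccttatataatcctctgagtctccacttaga
Ifit3b: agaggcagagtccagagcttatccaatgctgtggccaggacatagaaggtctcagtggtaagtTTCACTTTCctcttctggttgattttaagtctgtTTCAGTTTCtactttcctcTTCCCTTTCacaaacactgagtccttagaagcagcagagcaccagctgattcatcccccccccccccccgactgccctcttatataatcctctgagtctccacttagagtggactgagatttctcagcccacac
Isg15: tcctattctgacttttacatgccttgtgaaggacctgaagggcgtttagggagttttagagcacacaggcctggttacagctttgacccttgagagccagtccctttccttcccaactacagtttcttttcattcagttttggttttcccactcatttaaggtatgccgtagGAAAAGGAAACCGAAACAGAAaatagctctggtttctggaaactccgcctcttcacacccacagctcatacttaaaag
Rsad2: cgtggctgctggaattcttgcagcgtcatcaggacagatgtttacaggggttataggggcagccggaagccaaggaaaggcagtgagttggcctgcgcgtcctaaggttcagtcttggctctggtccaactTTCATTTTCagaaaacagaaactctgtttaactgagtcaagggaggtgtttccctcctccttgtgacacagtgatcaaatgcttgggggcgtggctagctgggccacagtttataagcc

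Ifit1, Ifit3, Ifit3b and Isg15 held 3 core matches each, and Rsad2 held 1. Among 32851 mouse promoter windows of the same length, 7.13% held at least 1 match and 0.469% held at least 2. In Isg15 the matches overlapped and lay on the gene's own strand, at positions -78 to -58 from the start. The matches of Ifit1 lay on the other strand, at positions -109 to -76. Those of Ifit3 lay at -155 to -94 and those of Ifit3b at -187 to -126, on the other strand in both and with the same spacing. Neither of the 2 windows of Ifit2 nor the window of Cmpk2 held the core. A gamma-activated motif, searched as TTCNNNGAA, was found at positions -241 to -233 of 1 of the starts of Ifit2 and in no window of the other 6 members, against 7.02% of all windows. A match describes letters in this window only and is no measure of binding.

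**Figure D1:**
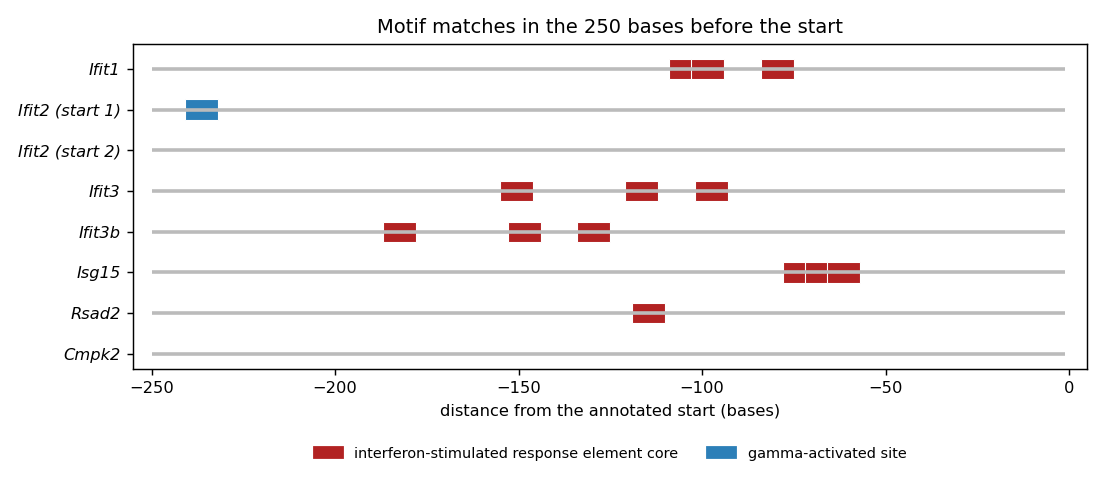
Positions of the core motif GAAANNGAA and the gamma-activated motif TTCNNNGAA in the 250 bases before the start of each member with a window; the horizontal axis is the distance from the start in bases. Ifit1, Ifit3, Ifit3b and Isg15 each show 3 core matches, Rsad2 shows 1, and the only gamma-activated match lies in a window of Ifit2.

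Library totals were 21580482 to 29466806 counted reads in FMT-Con A, 21772376 to 25890947 in Con A and 20513051 to 22770276 in WT. The filter on low counts left 17704 genes, all 10 members among them. Mitochondrial genes took 7.44% to 11.7% of the reads in FMT-Con A, 5.03% to 9.96% in Con A and 19.6% to 22.4% in WT. Hepatocyte markers, 6 genes in sum, stood at 46200 to 50300 CPM (counts scaled to a common library size) in FMT-Con A, 60800 to 63500 CPM in Con A and 58500 to 71600 CPM in WT, as a liver sample would show. The summed CPM of 8 skeletal muscle markers was 12400 and 12100 in FMT-Con A libraries 1 and 3 and 1080 in library 2, against 1.9, 4.82 and 1010 in the Con A libraries and 2.92 to 6.97 in WT. The labels disagree on the sex of the mice, and in all 9 libraries the male-specific gene Ddx3y stood at 99.9 to 259 CPM and Xist, the RNA of the inactive X chromosome, at 1.04 to 6.36 CPM. The labels number the mice of each group and say nothing more of their separation, so a p-value here reflects only how far these libraries scatter.

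All 10 effectors were higher in Con A livers than in WT livers, all 10 were lower in FMT-Con A livers than in Con A livers, and 9 of 10 stayed above WT in FMT-Con A livers, with Mx1 below it. In no comparison did the 3 libraries of one group overlap those of the other for any member. The share of all genes tested that separated in this way was not counted, so the separation is not shown to be particular to the members. At an adjusted p under 0.05, 32.5% of the 17704 genes tested were higher and 30.9% lower in Con A than in WT, 10.6% were lower in FMT-Con A than in Con A, 31.2% were higher in FMT-Con A than in WT and 27.9% were lower. The members' median log2 fold change was 3.48 for Con A against WT, where that of all genes tested was 0.01. It was -2.04 for FMT-Con A against Con A (all genes -0.01) and 1.38 for FMT-Con A against WT (all genes 0.03). Because the members were chosen with earlier results of these data known, the contrast with all genes is a description and no independent support. The last 2 comparisons share the FMT-Con A libraries, and the first 2 share the Con A libraries, so they are not independent of each other. In whole liver, fewer cells of a type and less RNA per cell cannot be told apart.

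**Figure D2:**
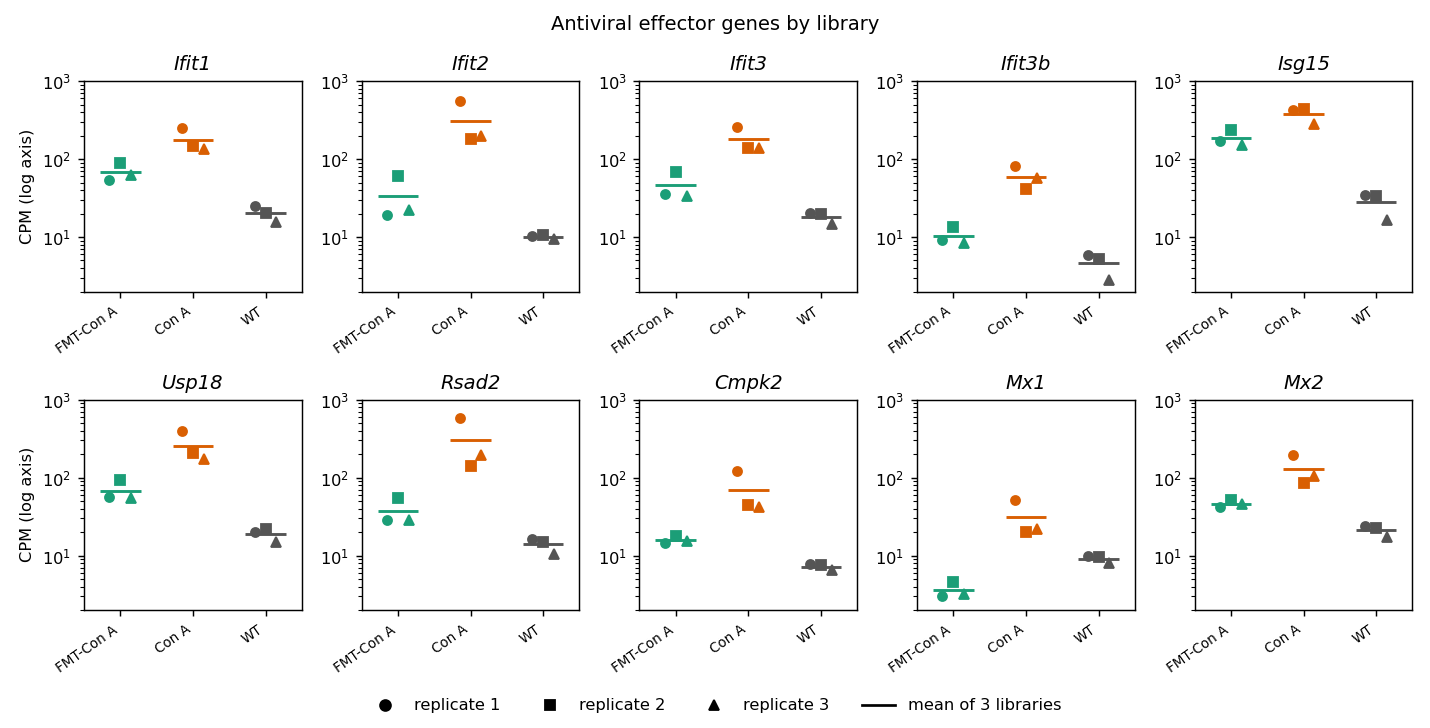
CPM on a log axis of each member in every library, with FMT-Con A, Con A and WT from left to right; each point is 1 library and the bar is the group mean. For all 10 genes the Con A points lie above all others, and for Mx1 alone the FMT-Con A points lie below the WT points.

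The IFIT genes encode RNA-binding proteins built of tetratricopeptide repeats, and lie side by side on the plus strand of chromosome 19. In build GRCm38 Ifit2 (ENSMUSG00000045932) spans chr19:34550694-34576419, Ifit3 (ENSMUSG00000074896) chr19:34583531-34588731, Ifit3b (ENSMUSG00000062488) chr19:34607970-34613401 and Ifit1 (ENSMUSG00000034459) chr19:34640871-34650009. Ifit2, whose protein binds AU-rich double-stranded RNA, stood at 19.3, 60.0 and 22.1 CPM in FMT-Con A libraries 1 to 3, at 554, 179 and 195 CPM in Con A and at 10.4, 10.7 and 9.36 CPM in WT. Con A library 1 and FMT-Con A library 2 each stood well above the others of their group, and the groups did not overlap. Ifit2 was 30.5-fold higher in Con A than in WT (a log2 change of 4.93 ± 0.59 SE, as after ± in the other fold changes, edgeR adjusted p = 6.02e-05), the largest of the 10 changes. In FMT-Con A it was 9.17-fold lower than in Con A (-3.20 ± 0.54, edgeR adjusted p = 0.00687) and 3.33-fold higher than in WT (1.73 ± 0.52, edgeR adjusted p = 0.0159). Without FMT-Con A library 2 the log2 fold change was 1.03 (edgeR adjusted p = 0.0591), and that against Con A was -3.89. Without Con A library 1, Ifit2 differed by 4.21 between Con A and WT and by -2.45 between FMT-Con A and Con A (edgeR adjusted p = 0.0185).

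Ifit1, whose protein binds RNA 5′ ends that lack 2′-O-methylation, stood at 54.6, 90.2 and 61.8 CPM in FMT-Con A, 252, 146 and 133 CPM in Con A and 25.2, 20.5 and 15.5 CPM in WT. The 3 groups formed 3 separate ranges. Ifit1 was 8.68-fold higher in Con A than in WT (a log2 change of 3.12 ± 0.31, edgeR adjusted p = 1.83e-05). It was 2.57-fold lower in FMT-Con A than in Con A (-1.36 ± 0.29, edgeR adjusted p = 0.0156) and 3.38-fold higher than in WT (1.76 ± 0.29, edgeR adjusted p = 0.000692). The difference from Con A missed the threshold without Con A library 1 (edgeR adjusted p = 0.0563), FMT-Con A library 1 (0.0723) or FMT-Con A library 3 (0.0669).

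Ifit3 and its near copy Ifit3b are 98% identical over 1697 aligned transcript bases. In human cells, where there is 1 IFIT3 gene, its protein is known for stabilising IFIT1 on RNA, a role not examined here for the mouse pair. Of the 50-base windows of Ifit3 transcripts, 51.2% also occur in another gene, as do 45% of those of Ifit3b, so the split of reads between the pair is uncertain. Ifit3 stood at 35.6, 68.7 and 33.6 CPM in FMT-Con A, 259, 137 and 140 CPM in Con A and 20.1, 19.9 and 14.9 CPM in WT. Ifit3b stood at 9.22, 13.5 and 8.28 CPM in FMT-Con A, 80.3, 40.8 and 56.6 CPM in Con A and 5.95, 5.15 and 2.80 CPM in WT. Both genes gave 3 ranges without overlap, with FMT-Con A nearer to WT than to Con A. Ifit3 was 9.77-fold higher in Con A than in WT (a log2 change of 3.29 ± 0.35, edgeR adjusted p = 2.92e-05) and Ifit3b 12.8-fold higher (3.68 ± 0.34, edgeR adjusted p = 1.22e-05). In FMT-Con A, Ifit3 was 3.89-fold lower than in Con A (-1.96 ± 0.33, edgeR adjusted p = 0.0069) and Ifit3b 5.75-fold lower (-2.52 ± 0.32, edgeR adjusted p = 0.00258). Against WT, FMT-Con A livers held 2.51-fold more Ifit3 (1.33 ± 0.33, edgeR adjusted p = 0.00614) and 2.23-fold more Ifit3b (1.15 ± 0.33, edgeR adjusted p = 0.0119).

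The annotation places 2 further IFIT-like genes among these 4. Ifit1bl1 had at most 11 reads in any library and did not pass the filter. Ifit1bl2 had 34, 55 and 41 reads in FMT-Con A, 136, 51 and 88 in Con A and 13, 9 and 1 in WT, and was higher in Con A than in WT (a log2 change of 3.64 ± 0.68, edgeR adjusted p = 0.00104) and in FMT-Con A than in WT (2.30 ± 0.68, edgeR adjusted p = 0.0153). Its FMT-Con A and Con A libraries overlapped (-1.35 ± 0.57, edgeR adjusted p = 0.131). Of the 50-base windows of Ifit1 transcripts, 7.13% are shared with this pair.

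Isg15 is the ubiquitin-like modifier itself, and the compact gene (ENSMUSG00000035692) lies on the minus strand at chr4:156199424-156200818. It stood at 172, 238 and 153 CPM in FMT-Con A, 430, 435 and 281 CPM in Con A and 34.1, 33.7 and 16.3 CPM in WT. The lowest Con A library lay only a little above the highest FMT-Con A library, while both groups lay far above WT. Isg15 was 13.6-fold higher in Con A than in WT (a log2 change of 3.77 ± 0.33, edgeR adjusted p = 8.72e-06) and 6.69-fold higher in FMT-Con A than in WT (2.74 ± 0.32, edgeR adjusted p = 6.87e-05). Its difference between FMT-Con A and Con A, 2.04-fold lower, was the smallest of the 10 (-1.03 ± 0.30, edgeR adjusted p = 0.0439). That call held under 10 of 18 alternative analyses, and was lost without Con A library 1 (edgeR adjusted p = 0.138), Con A library 2 (0.0827), FMT-Con A library 1 (0.144), FMT-Con A library 3 (0.146), WT library 1 (0.0663) or WT library 2 (0.0628).

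Usp18 encodes the protease that takes Isg15 off its targets and that also binds the type I interferon receptor and dampens its signal. The gene (ENSMUSG00000030107) lies at chr6:121245906-121270917 on the plus strand, and 124 of its 2790 exon bases overlap the antisense transcript Gm44148, whose reads cannot be told apart where strand was not used. Usp18 stood at 55.7, 92.6 and 55.0 CPM in FMT-Con A, 392, 209 and 171 CPM in Con A and 20.3, 21.6 and 14.8 CPM in WT. The groups did not overlap, and Con A library 1 again stood highest. Usp18 was 13.6-fold higher in Con A than in WT (a log2 change of 3.77 ± 0.36, edgeR adjusted p = 1.4e-05), 3.8-fold lower in FMT-Con A than in Con A (-1.92 ± 0.33, edgeR adjusted p = 0.00715) and 3.59-fold higher in FMT-Con A than in WT (1.84 ± 0.33, edgeR adjusted p = 0.00107).

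The enzymes that join Isg15 to proteins were listed as a separate group of 5 genes, all tested. In Con A against WT, 4 of the 5 were higher and none lower (list median log2 fold change 1.12), led by the ligase Herc6, which does this work in mice (3.17, edgeR adjusted p = 1.58e-06), and the activating enzyme Uba7 (1.97, edgeR adjusted p = 2.39e-06). Between FMT-Con A and Con A, 2 of 5 were lower in FMT-Con A, namely Herc6 (-1.12, edgeR adjusted p = 0.00725) and Uba7 (-0.79, edgeR adjusted p = 0.00713), and the list median was -0.50. Herc6 stood at 81.8, 130 and 89.8 CPM in FMT-Con A, at 227, 215 and 213 CPM in Con A and at 27.7, 25.8 and 19.6 CPM in WT. In FMT-Con A against WT, 4 of 5 were higher (list median 0.73). The shares of all genes tested were 32.5% higher in Con A than in WT and 10.6% lower in FMT-Con A than in Con A. The share higher in FMT-Con A than in WT was 31.2%.

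Rsad2, or viperin, makes a chain-terminating nucleotide from CTP, and Cmpk2 is a mitochondrial nucleotide kinase. The pair lie head to head on chromosome 12 with no annotated gene between them, Rsad2 (ENSMUSG00000020641) at chr12:26442746-26456452 on the minus strand and Cmpk2 (ENSMUSG00000020638) at chr12:26469204-26479837 on the plus strand. Rsad2 stood at 28.3, 54.4 and 28.8 CPM in FMT-Con A, 579, 141 and 194 CPM in Con A and 16.1, 14.9 and 10.6 CPM in WT. Cmpk2 stood at 14.6, 17.9 and 15.2 CPM in FMT-Con A, 120, 44.7 and 41.7 CPM in Con A and 7.69, 7.49 and 6.48 CPM in WT. For both genes Con A library 1 stood far above the other Con A libraries, with 4.11 times the Rsad2 and 2.69 times the Cmpk2 of Con A library 2, yet the groups did not overlap.

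Rsad2 was 22-fold higher in Con A than in WT (a log2 change of 4.46 ± 0.55, edgeR adjusted p = 7.64e-05) and Cmpk2 9.54-fold higher (3.25 ± 0.38, edgeR adjusted p = 5.56e-05). In FMT-Con A, Rsad2 was 8.20-fold lower than in Con A (-3.04 ± 0.52, edgeR adjusted p = 0.00695) and Cmpk2 4.34-fold lower (-2.12 ± 0.36, edgeR adjusted p = 0.00706). Without Con A library 1 the differences from Con A were -2.16 for Rsad2 (edgeR adjusted p = 0.0113) and -1.43 for Cmpk2 (0.00395), and those of Con A from WT were 3.6 and 2.58. Against WT, FMT-Con A livers held 2.68-fold more Rsad2 (1.42 ± 0.49, edgeR adjusted p = 0.0303) and 2.20-fold more Cmpk2 (1.14 ± 0.36, edgeR adjusted p = 0.0218). Both of these smaller differences depended on single libraries. For Rsad2, leaving out WT library 1, 2 or 3 gave edgeR adjusted p = 0.0582, 0.0655 or 0.0952, and leaving out FMT-Con A library 2 gave 0.0954. For Cmpk2, leaving out WT library 2 or 3 gave 0.0505 or 0.065.

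Mx1 encodes the nuclear and Mx2 the cytoplasmic Mx protein of the mouse. The alleles of C57BL/6 mice are defective in both, Mx1 lacking coding exons and Mx2 carrying an insertion that breaks its frame, so these values speak of transcripts only. Mx1 (ENSMUSG00000000386) lies at chr16:97447035-97462907 on the minus strand and Mx2 (ENSMUSG00000023341) at chr16:97535308-97560900 on the plus strand, where the annotation calls it a polymorphic pseudogene. Their transcripts are 81% identical over 1706 aligned bases, yet share few 50-base windows, 4.37% of those of Mx1 and 4.38% of those of Mx2 occurring in another gene.

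Mx1 stood at 3.00, 4.51 and 3.20 CPM in FMT-Con A, 51.0, 20.2 and 21.9 CPM in Con A and 9.75, 9.60 and 7.98 CPM in WT. Every FMT-Con A library was below every WT library, which was so for no other member. Mx1 was 3.40-fold higher in Con A than in WT (a log2 change of 1.77 ± 0.34, edgeR adjusted p = 0.00117), the smallest of the 10 increases. In FMT-Con A it was 8.71-fold lower than in Con A (-3.12 ± 0.36, edgeR adjusted p = 0.00199) and 2.56-fold lower than in WT (-1.36 ± 0.35, edgeR adjusted p = 0.00728). Counts behind the FMT-Con A values were 95, 95 and 84 reads, against 191 to 213 in WT. With FMT-Con A libraries 1 and 3 left out together, the difference from WT was -1.01 (edgeR adjusted p = 0.162).

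Mx2 stood at 41.5, 51.1 and 45.5 CPM in FMT-Con A, 192, 85.7 and 104 CPM in Con A and 23.7, 22.4 and 17.4 CPM in WT. Its FMT-Con A libraries lay close together between the other groups. Mx2 was 6.02-fold higher in Con A than in WT (a log2 change of 2.59 ± 0.28, edgeR adjusted p = 3.46e-05), 2.76-fold lower in FMT-Con A than in Con A (-1.47 ± 0.27, edgeR adjusted p = 0.00976) and 2.18-fold higher in FMT-Con A than in WT (1.12 ± 0.27, edgeR adjusted p = 0.00545). Without FMT-Con A library 1 the difference from Con A missed the threshold (edgeR adjusted p = 0.0517).

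**Figure D3:**
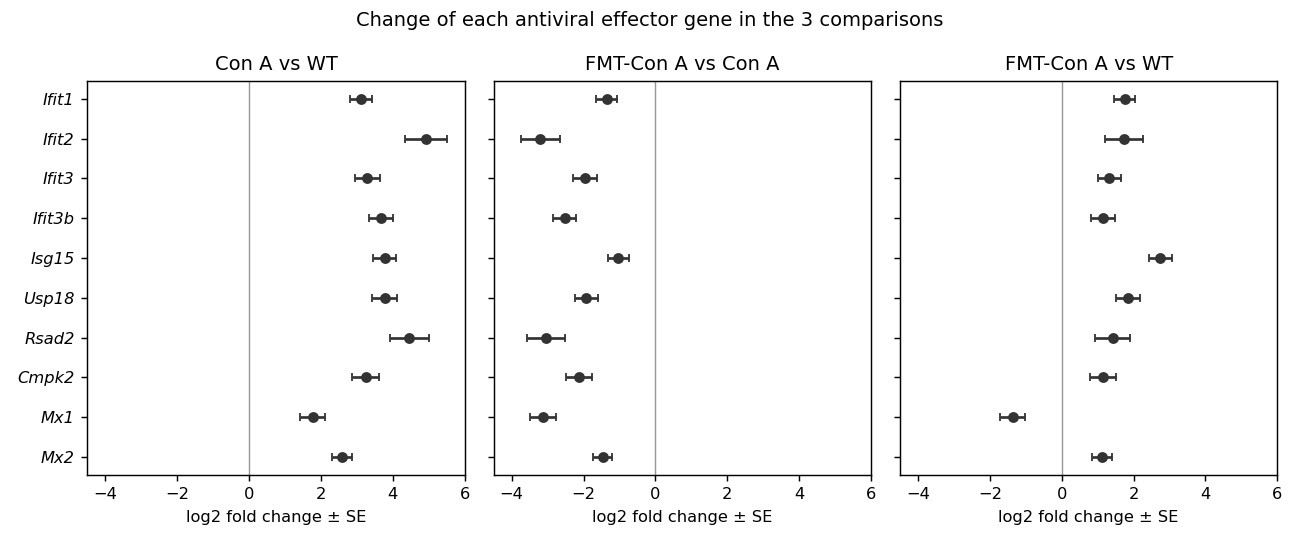
Log2 fold change of each member in the 3 comparisons, with bars for ± 1 SE; each panel is 1 comparison and the vertical line marks 0. All 10 points lie above 0 for Con A against WT and below 0 for FMT-Con A against Con A, and for FMT-Con A against WT only Mx1, at -1.36, lies below 0.

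The members differed in how much of the Con A increase over WT was seen in FMT-Con A livers. The excess of the FMT-Con A mean over the WT mean was 45.1% of the Con A excess for Isg15, 31.0% for Ifit1, 23.5% for Mx2 and 20.5% for Usp18. It was 17.2% for Ifit3, 14.1% for Cmpk2, 10.4% for Ifit3b, 8.02% for Rsad2 and 7.91% for Ifit2, and for Mx1 it was negative, at -25.3%. These shares rest on CPM means, and single libraries moved several by over 1.5 times. Without Con A library 1 they were 24.1% for Cmpk2, 15.2% for Rsad2, 13.4% for Ifit2 and -46.5% for Mx1. Without FMT-Con A library 2 they were 10.2% for Ifit3, 5.05% for Rsad2 and 3.53% for Ifit2. With any 1 of the 9 libraries left out, Isg15, Ifit1, Mx2 and Usp18 stayed highest in that order and Mx1 lowest, while the order of the other 5 differed between these analyses. The coefficient of variation within Con A was 78.4% for Rsad2, 68.4% for Ifit2 and 23% for Isg15.

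Ratios of read counts between members of 1 library do not depend on its total. Mx1 over Mx2 was 0.0722, 0.0883 and 0.0705 in FMT-Con A, 0.266, 0.235 and 0.210 in Con A and 0.412, 0.429 and 0.459 in WT. The 3 groups formed 3 separate ranges, lowest in FMT-Con A and highest in WT, with log2 differences of -1.62 for FMT-Con A against Con A, -2.50 for FMT-Con A against WT and -0.88 for Con A against WT. Each gave p = 0.1 by a two-sided exact permutation test of 3 libraries against 3, which is the smallest p that the 20 regroupings allow, and 0.138 after Benjamini-Hochberg adjustment over the 18 ratio tests made. Ifit2 over Ifit1 was 0.353, 0.666 and 0.358 in FMT-Con A, 2.20, 1.23 and 1.47 in Con A and 0.413, 0.522 and 0.605 in WT. Con A stood above both other groups, which overlapped. Rsad2 over Isg15 was 0.164, 0.229 and 0.189 in FMT-Con A, 1.35, 0.323 and 0.693 in Con A and 0.471, 0.443 and 0.647 in WT. For that ratio all FMT-Con A libraries lay below all others, while Con A and WT overlapped. Usp18 over Isg15 was 0.324, 0.389 and 0.360 in FMT-Con A, 0.911, 0.481 and 0.609 in Con A and 0.596, 0.640 and 0.905 in WT, again with FMT-Con A lowest and the other groups overlapping. Ifit3b over Ifit3, which rests on the uncertain split of their reads, was 0.259, 0.196 and 0.246 in FMT-Con A, 0.310, 0.297 and 0.405 in Con A and 0.296, 0.259 and 0.188 in WT. It was highest in Con A, and FMT-Con A and WT overlapped. Rsad2 over Cmpk2 was 1.94, 3.03 and 1.9 in FMT-Con A, 4.81, 3.15 and 4.66 in Con A and 2.09, 1.99 and 1.63 in WT. That ratio too was highest in Con A, with FMT-Con A and WT overlapping.

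**Figure D4:**
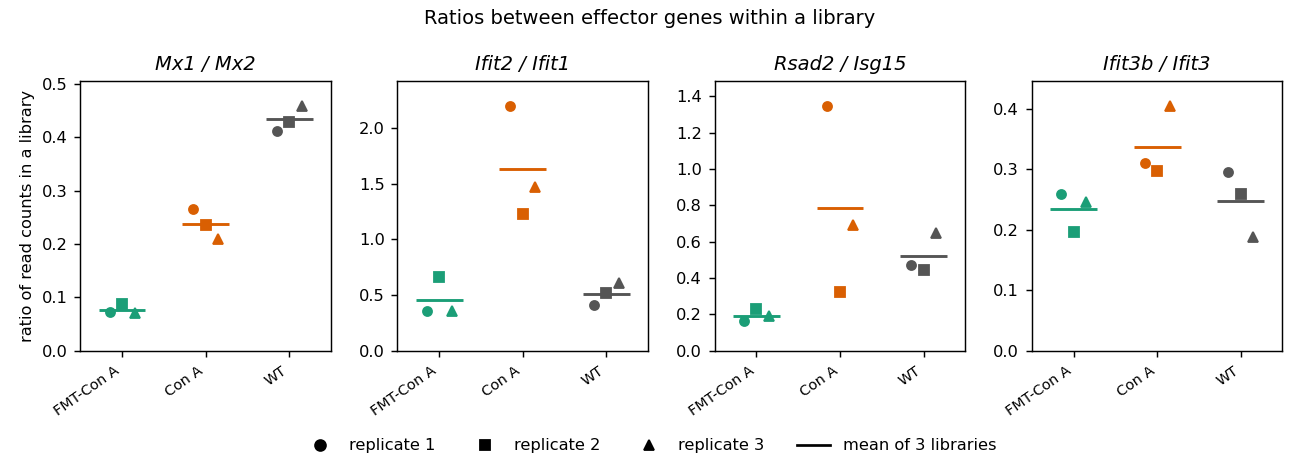
Ratios of read counts between pairs of members in each library, on linear axes that start at 0, with FMT-Con A, Con A and WT from left to right; each point is 1 library and the bar is the mean of 3. Mx1 over Mx2 lies at 0.0705 to 0.0883 in FMT-Con A, 0.210 to 0.266 in Con A and 0.412 to 0.459 in WT.

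Levels of different genes were compared per length, as TPM (reads per base of merged exon length, scaled to the same total in each library). Isg15 was the most abundant member in every group, at 611 ± 104 TPM in FMT-Con A, 1150 ± 201 TPM in Con A and 81 ± 29 TPM in WT (SD, n = 3 each), with no overlap with Ifit3, the next. In FMT-Con A the mean TPM then ran from Ifit3 at 64.3, Ifit1 at 63.8, Usp18 at 59.6, Mx2 at 31.6, Rsad2 at 21, Ifit2 at 20.8 and Ifit3b at 12.7 to Cmpk2 at 9.45 and Mx1 at 2.32. Of these neighbours, Ifit3 and Ifit1, Ifit1 and Usp18, Rsad2 and Ifit2, and Ifit2 and Ifit3b overlapped. In Con A the mean TPM ran from Ifit3 at 232, Usp18 at 208, Ifit2 at 177, Rsad2 at 158, Ifit1 at 151, Mx2 at 79.9, Ifit3b at 67.7 and Cmpk2 at 37.2 to Mx1 at 18.5, and below Isg15 only Ifit1 and Mx2 did not overlap. In WT it ran from Ifit3 at 22.9, Ifit1 at 16.8, Usp18 at 14.8, Mx2 at 12.8, Rsad2 at 6.99, Ifit2 at 5.65, Mx1 at 5.27 and Ifit3b at 5.07 to Cmpk2 at 3.79, and below Isg15 only Mx2 and Rsad2 did not overlap. Ifit2 and Rsad2 thus stood above Ifit1 in the mean of Con A, within the spread of its libraries, and below it in FMT-Con A and WT.

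The members also varied together within groups. FMT-Con A library 2 was the highest of its group for 10 of 10 members, Con A library 1 for 9 of 10, all but Isg15, and WT library 3 was the lowest of its group for 10 of 10. The summed CPM of the members was 434, 691 and 426 in FMT-Con A, 2910, 1440 and 1340 in Con A and 173, 166 and 116 in WT. Over the 9 libraries the Pearson r of log2 CPM between members ranged from 0.321 for Isg15 and Mx1 to 0.994 for Ifit2 and Ifit3, with a median of 0.97 over 45 pairs. Over the 6 libraries of injected mice it ranged from 0.846 for Isg15 and Mx2 to 0.998, with a median of 0.978. These points share the group differences and each library's total, and are given as a description.

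FMT-Con A library 2, in which the members were highest, also had the fewest muscle reads of its group, at 1080 CPM, and the most Kupffer cell markers. The sum of 6 Kupffer markers was 43.2, 86.8 and 41.3 CPM in FMT-Con A, 114, 95.9 and 117 CPM in Con A and 166, 140 and 222 CPM in WT. With FMT-Con A libraries 1 and 3 left out, an alternative chosen after seeing the data, no member passed the threshold between FMT-Con A and Con A in edgeR, with 9 of 10 at an unadjusted p under 0.05, log2 fold changes of -0.68 to -2.78 and adjusted p of 0.0784 to 0.442. That fit had 1 FMT-Con A library, assumed to vary like the other groups, and called 99 genes in all against 2981. FMT-Con A library 2 alone still lay below every Con A library for all 10 members. With FMT-Con A library 2 and Con A library 2 left out instead, 10 of 10 members passed. That alternative removed the FMT-Con A library in which all 10 members were highest. It therefore lowered the group's mean for each member by construction, and does not offset the result above. The part of muscle and Kupffer cell content in these results was not tested.

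Markers of other cells were summed in the same way. T and NK cell markers (6 genes) stood at 6.55 to 8.02 CPM in FMT-Con A, 7.42 to 15.7 CPM in Con A and 4.34 to 5.40 CPM in WT. Neutrophil markers (6 genes) stood at 212 to 301 CPM in FMT-Con A, 213 to 417 CPM in Con A and 9 to 15 CPM in WT. Plasmacytoid dendritic cell markers (8 genes) stood at 259 to 353 CPM in FMT-Con A, 348 to 376 CPM in Con A and 175 to 267 CPM in WT, most of it from Bst2, which is also an interferon target, while the defining marker Siglech stood at 0.0829 to 0.502 CPM in all 9 libraries. Cox6a2 in that list, which muscle also expresses, stood at 82.7, 13.4 and 72.7 CPM in FMT-Con A. Monocyte markers stood at 39.9 to 46.7 CPM in FMT-Con A, 32.8 to 40.6 CPM in Con A and 32.2 to 45.1 CPM in WT. B cell markers stood at 11.9 to 17.7, 8.60 to 11.4 and 8.66 to 12.5 CPM in FMT-Con A, Con A and WT, and sinusoidal endothelial markers at 50.4 to 61.8, 63.5 to 77.6 and 57.6 to 78.7 CPM. Genes of some lists went both ways between Con A and WT, so a similar sum does not mean unchanged genes. Of 5 monocyte markers, 3 were higher and 2 lower (log2 fold changes of -0.55 to 6.1). Kupffer markers split 2 higher and 2 lower of 6 (-0.98 to 3.3), and sinusoidal endothelial markers 2 and 2 of 4 (-2.62 to 2.93). Hepatocyte markers split 2 and 3 of 6 (-0.95 to 3.12). Of all genes tested, 32.5% were higher and 30.9% lower. No marker in the lists was at 0 in all libraries, and the part of these cells in the members' results was not tested.

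Transcripts of the interferon genes listed were sparse apart from Ifng. The listed genes Ifna1, Ifna2, Ifna4, Ifna5, Ifnl2 and Ifnl3 had 0 reads in all 9 libraries, which allows up to 3 reads or 0.0947 to 0.157 CPM in each library, and Ifnb1 had 2 reads in all. Ifng, the interferon of T and NK cells, stood at 3.13, 3.8 and 3.85 CPM in FMT-Con A, 12.7, 18.5 and 14.5 CPM in Con A and 0.320, 0.140 and 0.0418 CPM in WT. It was higher in Con A than in WT (a log2 change of 6.49 ± 0.41, edgeR adjusted p = 1.33e-06), lower in FMT-Con A than in Con A (-2.09 ± 0.29, edgeR adjusted p = 0.00353) and higher in FMT-Con A than in WT (4.4 ± 0.42, edgeR adjusted p = 1.98e-05). WT held only 7, 3 and 1 reads of Ifng, and without WT library 1 the changes from WT were 7.32 for Con A and 5.25 for FMT-Con A. Of the 14 listed ligands and receptors, 7 were tested. All 7 were higher in Con A than in WT (median 1.58), 2 were lower in FMT-Con A than in Con A (median -0.22), and 6 were higher in FMT-Con A than in WT (median 1.11). The shares of all genes tested in these directions were 32.5%, 10.6% and 31.2%. The 2 lower than in Con A, Ifng and Ifngr1, became 1 in 7 of the 9 analyses that left out a library, the exceptions being WT library 3 and Con A library 2, and none without FMT-Con A libraries 1 and 3.

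Irf7, a transcription factor that amplifies the type I response, stood at 122, 175 and 111 CPM in FMT-Con A, 272, 272 and 358 CPM in Con A and 137, 169 and 82.6 CPM in WT. Its FMT-Con A libraries overlapped those of WT and lay below those of Con A (-1.14 ± 0.27, edgeR adjusted p = 0.0224). That difference missed the threshold without Con A library 1 (edgeR adjusted p = 0.0627), Con A library 3 (0.0516), FMT-Con A library 1 (0.0952) or FMT-Con A library 3 (0.0894). Among all 10 signal transducers, 5 were higher and 3 lower in Con A than in WT (median 0.50), 2, Irf7 and the receptor kinase Jak1, were lower in FMT-Con A than in Con A (median 0.01), and 4 were higher and 2 lower in FMT-Con A than in WT (median 0.10). The 3 lower of 10 in Con A stood near the 30.9% of all genes. The share of all genes was 32.5% for higher in Con A than in WT and 10.6% for lower in FMT-Con A than in Con A. For FMT-Con A against WT, the shares of all genes were 31.2% higher and 27.9% lower. The 2 lower than in Con A became none without any 1 of the same 4 libraries. Jak1 (-0.69 ± 0.17, edgeR adjusted p = 0.0283) also missed the threshold without WT library 1 (edgeR adjusted p = 0.0589), 2 (0.0534) or 3 (0.0522). With only the 6 libraries compared, its edgeR adjusted p was 0.088. The negative feedback gene Socs1 had the largest increase of the list over WT, 7.23 for FMT-Con A and 6.87 for Con A on the log2 scale.

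Sensors of RNA and DNA that act before interferon were listed as 12 genes. The annotation matched 11 of their symbols, and 10 passed the filter on low counts and were tested. In Con A against WT, 8 were higher (median 1.75), where 32.5% of all genes tested were higher. Relative to Con A, 7 were lower in FMT-Con A (median -0.74), among them the RNA sensors Dhx58 (-1.50, edgeR adjusted p = 0.0018) and Ifih1 (-1.42, edgeR adjusted p = 0.00367). Of all genes tested, 10.6% were lower in that comparison. Relative to WT, 4 were higher in FMT-Con A and 1 was lower (median 0.37), where 31.2% of all genes tested were higher and 27.9% lower. The lower gene was Tlr7, the endosomal receptor for single-stranded RNA, at 0.442, 0.855 and 0.458 CPM in FMT-Con A, 2.98, 2.77 and 2.69 CPM in Con A and 2.15, 2.34 and 2.76 CPM in WT. Tlr7, like Mx1, stood below WT in all FMT-Con A libraries (-2.07 ± 0.30, edgeR adjusted p = 0.000307), and it gave no difference past the threshold between Con A and WT (0.22 ± 0.27, edgeR adjusted p = 0.505).

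Other type I interferon targets were listed as 26 genes, of which 25 were tested. In Con A against WT, 21 were higher and 2 lower (median 1.64), where 32.5% of all genes tested were higher and 30.9% lower. The share of all genes lower in FMT-Con A than in Con A was 10.6%. In FMT-Con A against Con A, 18 were lower and none higher (median -0.77), among them Oasl2, a member of the oligoadenylate synthetase family (-1.44, edgeR adjusted p = 0.00196), and Ifi44 (-1.73, edgeR adjusted p = 0.00216). In FMT-Con A against WT, 17 were higher and 3 lower (median 1.08). Of all genes tested, 31.2% were higher and 27.9% lower there, so the lower genes of this list were fewer than that share. The 3 lower were Ifi27l2a (-1.09), Oas2 (-0.82) and Sp100 (-0.77). In the other interferon lists, cell markers aside, the lower genes were the transducers Irf2 (-0.84) and Tyk2 (-0.57) and the sensor Tlr7. For each of these genes the FMT-Con A libraries all lay below WT at an edgeR adjusted p under 0.05. The 5 besides Tlr7 were named after their values were seen. The count of 18 fell to 9 without Con A library 1, to 8 without FMT-Con A library 1 and to 8 without FMT-Con A library 3. Oasl2 stood at 51.9, 70.7 and 54.1 CPM in FMT-Con A, 162, 155 and 161 CPM in Con A and 18.7, 21.4 and 15.6 CPM in WT, so that unlike the IFIT genes it varied little among Con A libraries.

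Targets known mainly for interferon-gamma were 12 genes, all tested. All 12 were higher in Con A than in WT, with a median log2 fold change of 5.93, or 4.58 with Ido1, which had 0 reads in WT, at the bound that 3 reads in each WT library allow. Nos2, the inducible nitric oxide synthase, had the largest at 10.15, and Gbp5, a guanylate-binding protein, had 6.88. Relative to Con A, 6 were lower in FMT-Con A (median -0.91), among them Nos2 (-3.72) and Gbp5 (-1.78), and 6 did not pass the threshold. In FMT-Con A against WT, 12 of 12 were higher (median 4.43, or 3.98 with Ido1 at that bound). The shares of all genes tested were 32.5% higher in Con A than in WT and 10.6% lower in FMT-Con A than in Con A. The share higher in FMT-Con A than in WT was 31.2%.

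**Figure D5:**
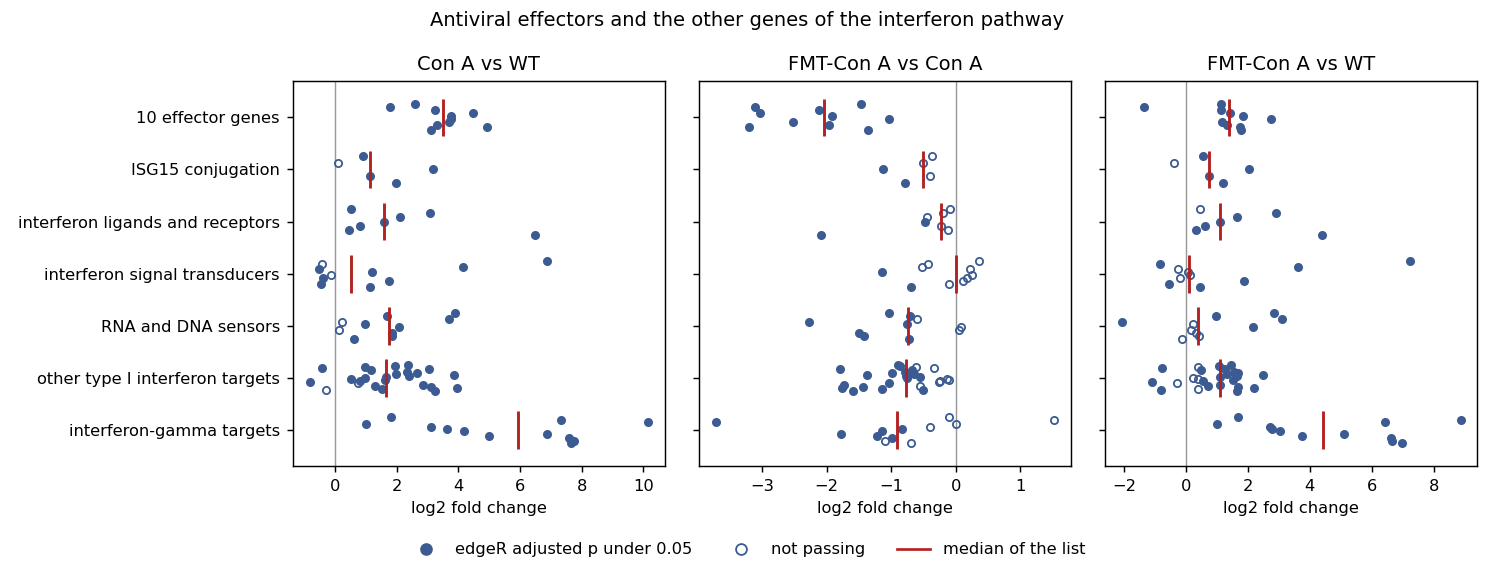
Log2 fold change of the members and of the genes of 6 related lists in the 3 comparisons; each point is 1 gene, filled where the edgeR adjusted p was under 0.05, and the bar is the list median. For Con A against WT the members' median is 3.48 and that of interferon-gamma targets 5.93, and for FMT-Con A against Con A the members' median of -2.04 is the lowest of the lists. Members and lists were chosen with earlier results of these data known.

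Genes whose log2 CPM was most like the mean standardised profile of the members over the 9 libraries were Bbx and Trp53inp1 (Pearson r = 0.996), Nab1 (0.993), Sdc4 (0.992), Tsc22d2 (0.99), Tmem30a, Aass and Map2k4 (0.989), and Impact and Pigm (0.987). Over the 6 libraries of injected mice alone they were Spatc1l and Rtp4 (0.998) and Lipc, Btc and Pla1a (0.997). Rtp4 is itself known as an interferon-induced gene. These values describe likeness over few libraries, which share group and total.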

How the data were processed

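CASAVA, HISAT2 and featureCounts are the tools, and GRCm38 (mm10) the build, that the submitters' processing notes name. Versions, annotation release, strand setting and treatment of multi-mapping reads are not given in the sources used here. The authors deposited 1 table per library of whole-number read counts per Ensembl gene, not normalised. Symbols and exons came from an annotation of the same build.

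Libraries were grouped by the labels' titles. Genes were filtered with a minimum count of 10 and a minimum total count of 15. All 9 libraries were fitted in 1 model with TMM normalisation and edgeR 4.0.16 (quasi-likelihood test, R 4.3.3), with Benjamini-Hochberg adjustment over 17704 genes and a threshold of 0.05. The SE of a log2 fold change is its size divided by the square root of its F statistic. CPM are per TMM-adjusted library size, and marker sums are per library total. Ratios were tested by exact permutation.

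The members and lists were chosen with earlier results of these data known. Named are all members, up to 4 genes of a list with the lowest p in a comparison, genes between members, and the genes most alike in log2 CPM (prior count 2). Alternatives were RLE scaling, library sizes without mitochondrial or muscle genes, other filters, DESeq2 1.42.0, a replicate block, only the 6 libraries compared, and libraries left out.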

Additional observations from a re-analysis of the deposited data

How the results depend on the processing

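All 10 members passed the threshold for Con A against WT under all 18 alternatives run. For FMT-Con A against Con A, 10 members passed with RLE scaling, with library sizes without mitochondrial and muscle genes, with both other filters and with DESeq2. They also passed with Con A library 2 and FMT-Con A library 2 left out, which removed the FMT-Con A library highest for all 10. With only the 6 libraries compared 9 passed, and with each library left out in turn 7 to 10 did. With FMT-Con A libraries 1 and 3 left out, an alternative chosen after seeing the data, 0 passed in that comparison, 9 having an unadjusted p under 0.05. For FMT-Con A against WT, 7 to 10 passed with each library left out in turn. No member's log2 fold change changed sign under any alternative, and no scaling moved the median of all genes by over 0.1.

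Over all genes, 2981 passed for FMT-Con A against Con A. That count was 1156 with only the 6 libraries compared, 3993 with DESeq2, 6048 without Con A library 2 and FMT-Con A library 2, 99 without FMT-Con A libraries 1 and 3, and 664 to 4053 with each library left out in turn. For FMT-Con A against WT it was 10449, against 6957 without FMT-Con A libraries 1 and 3. Among the lists, the sensors lower in FMT-Con A than in Con A numbered 1 in place of 7 without FMT-Con A libraries 1 and 3, interferon-gamma targets 2 in place of 6, other type I targets 0 in place of 18, and Isg15 conjugation 0 in place of 2, or 4 with DESeq2. Transducers and ligands with receptors each numbered 0 in place of 2 without those 2 libraries, and with each library left out in turn 0 to 2 and 1 to 2. The causes were not tested.

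Groups share replicate numbers, and the labels state no pairing by them. Of 9 same-numbered pairs, 2 correlated above 0.1 in their deviations from the group means (r of -0.22 to 0.34). Libraries were closest to their own number in 9 of 18 checks. So few libraries cannot show whether the numbers pair them. With a replicate block 10 members passed in each comparison, and 2663 genes passed for FMT-Con A against Con A. Members had at least 67 reads in every library. Of the listed interferon genes, 6 had 0 reads in all libraries and Ifnb1 had 2 in total, so these could not be compared between groups. The part of sequencing depth in those low counts was not tested. With 3 libraries a group, no ratio test could go below p = 0.1 in an exact permutation test.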
